A study of Homo sapiens with 6 samples.

Results

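PTGES, the gene of microsomal prostaglandin E synthase-1, was read at 49.99 ± 4.43 FPKM (SD, n = 3) in MDA-MB-231 cells without irradiation and at 99.8 ± 3.07 FPKM (n = 3) at 24 h after 10 Gy. FPKM are fragments per kilobase of gene, scaled to sequencing depth. Of the other genes of the same short pathway, PTGES2, PTGES3 and PTGR1 were lower after 10 Gy, PLA2G4A and PTGS2 had values that overlapped between the doses, and PTGS1 was higher but read at under 1 FPKM in every library. These 7 genes make up the group described here. They were chosen by gene name from the 58735 rows of the expression table, and the group was chosen because PTGES was among the largest rises in the same comparison of 10 Gy with 0 Gy. Their levels and changes are therefore given as a description, with no test.

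MDA-MB-231 is a human line from a basal-like breast cancer. The 6 polyA libraries comprised 3 of control cells at 0 Gy and 3 of cells exposed to 10 Gy from a 137Cs source and collected 24 h later. The sample names mark all of them as SCR, the non-targeting shRNA control of the study, while the labels give their genotype as WT. All 6 come from this line alone, at 1 dose and 1 time. Nothing in the labels says whether the libraries of a dose came from separate cultures, so the p-values below measure only the spread between these libraries, which may be technical.

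Prostaglandin E2 is a lipid signal made from arachidonic acid. Cytosolic phospholipase A2 (PLA2G4A) frees arachidonic acid from membrane phospholipids, the cyclooxygenases PTGS1 and PTGS2 turn it into prostaglandin H2, and a prostaglandin E synthase isomerises prostaglandin H2 to prostaglandin E2. PTGS2 is the inducible cyclooxygenase and PTGES the inducible synthase, which depends on glutathione. PTGES2 is a second membrane-associated synthase, and PTGES3 is the cytosolic enzyme, better known as p23, a co-chaperone of HSP90. PTGR1 reduces prostaglandins that have been oxidised, and it also oxidises leukotriene B4, in both cases to less active forms. Prostaglandin E2 made by tumour cells acts on receptors of the tumour and of its surroundings.

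The promoters of PTGES, PTGES3 and PTGS2 are printed as examples of different behaviour after 10 Gy: a higher level, a lower level and values that overlapped. They were picked with these values known, and PTGR1, whose promoter is not printed, fell further than PTGES3. The sequences are those of RefSeq on GRCh38.p14, from 250 bases before to 50 bases after an annotated start, and the table held 10 such promoters for all 7 genes. The PTGES promoter lies at chr9:129752993-129753292 on the minus strand, the PTGES3 promoter at chr12:56688235-56688534 on the minus strand and the PTGS2 promoter at chr1:186680374-186680673 on the minus strand. Each is printed 5′ to 3′ on the strand of its gene, and the capitals mark matches to 6 motifs searched on both strands.
PTGES: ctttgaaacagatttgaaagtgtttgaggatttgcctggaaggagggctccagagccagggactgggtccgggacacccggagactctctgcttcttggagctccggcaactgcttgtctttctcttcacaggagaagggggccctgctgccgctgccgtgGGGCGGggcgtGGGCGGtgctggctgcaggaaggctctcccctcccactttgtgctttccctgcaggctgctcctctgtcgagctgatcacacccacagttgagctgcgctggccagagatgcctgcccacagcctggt
PTGES3: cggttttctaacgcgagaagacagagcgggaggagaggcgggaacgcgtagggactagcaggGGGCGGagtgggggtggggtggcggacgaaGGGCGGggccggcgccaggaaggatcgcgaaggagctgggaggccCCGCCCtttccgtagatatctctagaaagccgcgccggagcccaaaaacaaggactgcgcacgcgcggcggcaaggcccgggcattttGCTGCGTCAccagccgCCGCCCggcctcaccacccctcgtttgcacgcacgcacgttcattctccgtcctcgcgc
PTGS2: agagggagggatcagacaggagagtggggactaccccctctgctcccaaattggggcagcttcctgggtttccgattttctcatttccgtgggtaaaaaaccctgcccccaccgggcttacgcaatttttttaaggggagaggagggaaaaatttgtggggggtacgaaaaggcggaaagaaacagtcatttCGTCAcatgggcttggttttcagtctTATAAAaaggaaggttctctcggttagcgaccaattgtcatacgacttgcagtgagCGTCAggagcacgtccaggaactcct

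The motifs were the GC box GGGCGG, the TATA box TATAAA, the AP-1 site TGANTCA, the cyclic AMP response core TGACG (CRE core), the E-box CACGTG and the antioxidant response core TGACNNNGC. The PTGES promoter held 2 GC boxes, beginning 89 and 78 bases before the start, and none of the other 5 motifs. PTGES3 held 4 GC boxes and, on the opposite strand, a CRE core that overlaps a match to the antioxidant response core. The PTGS2 promoter held no GC box and a TATA box beginning 32 bases before the start. It also held 2 CRE cores on the opposite strand, 1 beginning 58 bases before the start and 1 at base 25 after it. A GC box was present in 45.0% of 35116 promoters of the same length, a TATA box in 11.5%, a CRE core in 24.6% and the antioxidant response core in 13.3%. AP-1 sites, in 7.71% of all promoters, were found in none of the 10, and an E-box, in 7.26%, in 1 of the promoters of PTGES2. The PTGES promoter was 61.7% G and C and the PTGS2 promoter 50.7%, against a median of 58.7% over all promoters. These matches describe letters in a window and say nothing of which factors bound there.

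Without irradiation, PTGES3 was the highest of the 7 genes, at 169, 169 and 164 FPKM in the 3 libraries. PTGES came next, then PTGES2, PTGR1, PLA2G4A, PTGS2 and PTGS1. No neighbours in this order had overlapping ranges at 0 Gy, though PLA2G4A was only 1.23 times PTGS2 on the FPKM scale. The step from PTGR1 to PLA2G4A was 10.3-fold, so that 4 genes stood above 20 FPKM and the phospholipase and both cyclooxygenases stood below 3 FPKM. PTGES at 0 Gy was above 92.2% of the 12128 genes that averaged 1 FPKM or more over the libraries, PTGES3 above 98.4% and PTGS2 above 16.0%. The order depends on the length each gene is given. The deposited lengths are the union of all annotated exons, and when FPKM were set instead on the longest coding transcript, an alternative chosen after seeing the data, PTGR1 moved from 24.4 to 65.2 FPKM and stood above PTGES at 53.4 and PTGES2 at 47.8.

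**Figure D1:**
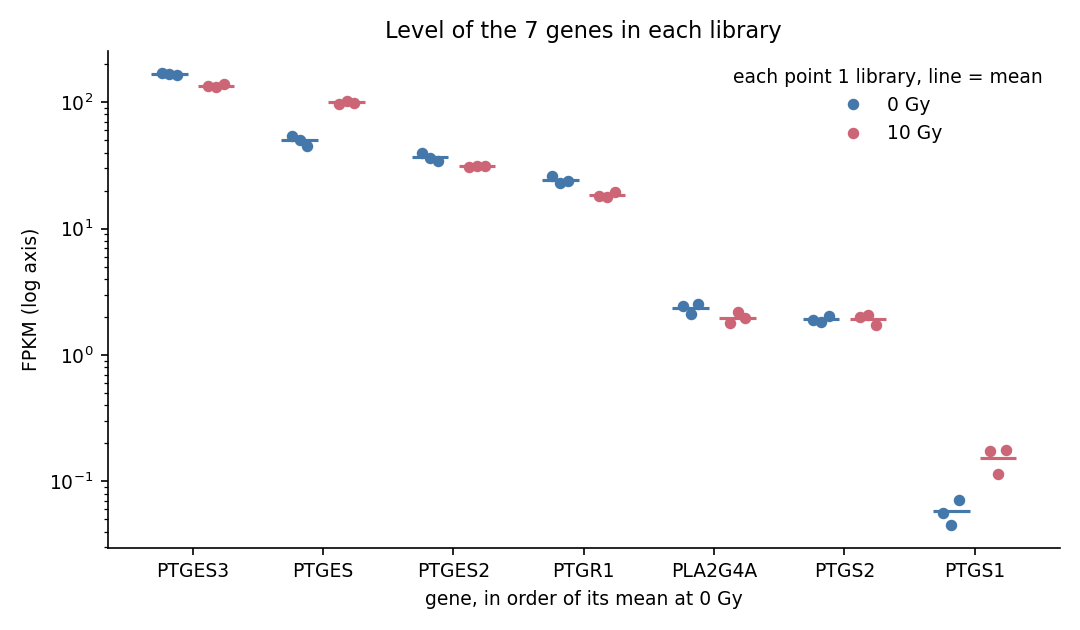
FPKM of the 7 genes on a log axis, with 1 point for each library at 0 Gy (3) and 10 Gy (3) and a line at the mean of each dose. PTGES is the gene of the 4 highest whose 10 Gy points lie above its 0 Gy points, and the points of PLA2G4A and PTGS2 overlap between doses.

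PTGES (ENSG00000148344) lies on the minus strand of GRCh38 chr9:129738331-129753047. Its level was 54.2, 50.3 and 45.4 FPKM in the 0 Gy libraries and 97.3, 103 and 98.9 FPKM in the 10 Gy libraries. The lowest irradiated library was well above the highest control, so the doses did not overlap. The mean ratio was 2.00, and the log2 change on the scale of log2(FPKM + 1), used for every log2 change below, was 0.99 ± 0.06 (SE). Between 1467 and 2193 reads lay behind the 0 Gy values and between 3573 and 5516 behind the 10 Gy values, which puts the counting error below the spread between libraries. Leaving out each library in turn gave log2 changes from 0.92 to 1.05. In bulk RNA a change in RNA per cell cannot be told apart from a change in the make-up of the cells collected.

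PTGES3 (ENSG00000110958, chr12:56663341-56688408, minus strand) was read at 169, 169 and 164 FPKM at 0 Gy and at 135, 131 and 140 FPKM at 10 Gy. All irradiated libraries were below all controls, with a mean ratio of 0.808 and a log2 change of -0.31 ± 0.04. PTGES2 (ENSG00000148334, chr9:128120693-128128462, minus strand) was read at 39.5, 36.1 and 34.3 FPKM at 0 Gy and at 30.8, 31.2 and 31.4 FPKM at 10 Gy. The PTGES2 ranges did not overlap, but the gap between the lowest control and the highest irradiated library was smaller than the range of the controls, and the log2 change was -0.23 ± 0.05.

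The 3 synthases stood in different proportions at the 2 doses, with PTGES higher and the other two lower after 10 Gy. Summed over PTGES, PTGES2 and PTGES3 the level was 254 ± 9.85 FPKM at 0 Gy and 266 ± 3.65 FPKM at 10 Gy, and the library ranges of this sum overlapped. PTGES made up 20.6%, 19.7% and 18.6% of that sum in the controls and 37.0%, 38.9% and 36.6% after irradiation. The share of PTGES3 went from 65.9% ± 1.47 to 50.8% ± 1.24 and that of PTGES2 from 14.4% ± 0.528 to 11.7% ± 0.0681. Within a library such shares do not depend on the scaling between libraries. PTGES3 was 3.36 ± 0.244 times PTGES at 0 Gy and 1.36 ± 0.0752 times PTGES at 10 Gy. Between PTGES3 and PTGES2, by contrast, the ratio was 4.58 ± 0.261 and 4.34 ± 0.125, with overlapping libraries. These are shares of RNA, and levels of enzyme were not measured here.

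**Figure D2:**
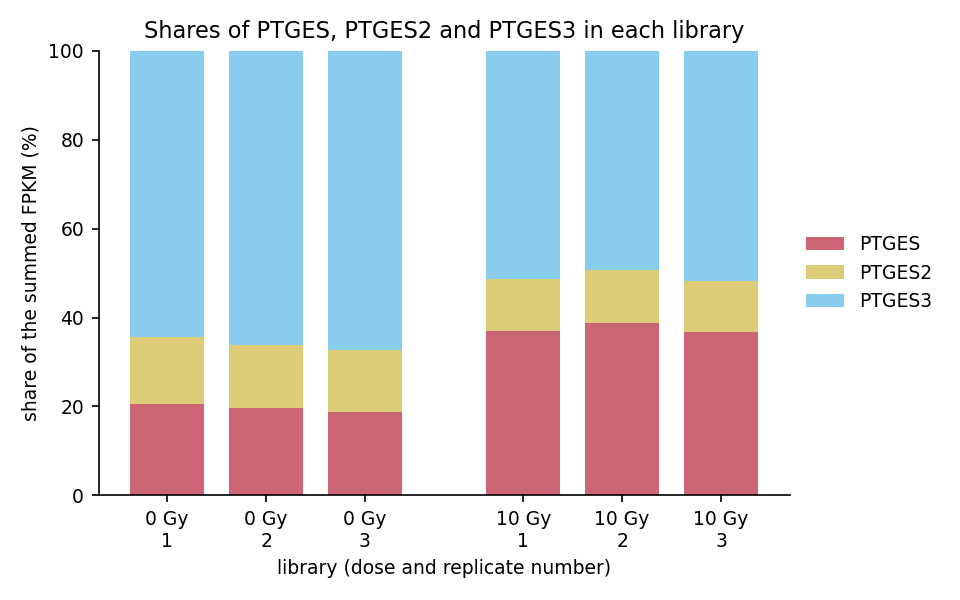
Share (%) of PTGES, PTGES2 and PTGES3 in their summed FPKM, with 1 bar for each of the 6 libraries. The PTGES share lies between 18.6% and 20.6% in the 0 Gy libraries and between 36.6% and 38.9% in the 10 Gy libraries.

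The enzymes upstream of the synthases were read at low levels. PTGS2 (ENSG00000073756, chr1:186671791-186680427, minus strand) was at 1.89, 1.83 and 2.03 FPKM at 0 Gy and at 2.00, 2.09 and 1.74 FPKM at 10 Gy. Its highest and lowest values were both in irradiated libraries, and its log2 change was 0.01 ± 0.07. The ratio of PTGES to PTGS2 was 28.7, 27.5 and 22.3 in the controls and 48.7, 49.4 and 57.0 after irradiation. It was higher in each irradiated library than in any control.

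PTGS1 (ENSG00000095303, chr9:122370530-122395703, plus strand) had 7, 4 and 9 reads at 0 Gy and 30, 12 and 22 reads at 10 Gy. Its FPKM were 0.0567, 0.0449 and 0.0718 and then 0.173, 0.114 and 0.175, which did not overlap and had a mean ratio of 2.67. PTGS1 was below the minimum mean of 1 FPKM and did not enter the fit, and even at 10 Gy it was at 0.154 ± 0.0351 FPKM, far under PTGS2 at 1.94 ± 0.184 FPKM. PLA2G4A (ENSG00000116711, chr1:186828953-186988981, plus strand) was at 2.45, 2.13 and 2.52 FPKM at 0 Gy and at 1.80, 2.17 and 1.96 FPKM at 10 Gy. The second irradiated library was above the lowest control, so the doses overlapped, and the log2 change was -0.18 ± 0.07. PLA2G4A begins 148.5 kb from the start of PTGS2, on the other strand. At 0 Gy PLA2G4A stood above PTGS2 in every library, and at 10 Gy their ranges overlapped.

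PTGR1 (ENSG00000106853, chr9:111549722-111599893, minus strand), on the removal side of the pathway, was at 26.1, 23.2 and 24.0 FPKM at 0 Gy and at 18.0, 17.7 and 19.6 FPKM at 10 Gy. Every irradiated library was below every control, with a mean ratio of 0.755 and a log2 change of -0.39 ± 0.06. This was the lowest ratio among the 7 genes. The ratio of PTGES to PTGR1 was 2.05 ± 0.142 at 0 Gy and 5.43 ± 0.388 at 10 Gy.

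Of the 7 genes, 6 averaged 1 FPKM or more and entered the limma fit over 12128 genes. In that fit 35.6% of all genes had an adjusted p under 0.05 (called), 11.9% called higher and 23.7% called lower at 10 Gy, and the 2 groups of libraries did not overlap for 51.9% of genes. Of the 6 members, 4 were called, PTGES as higher and PTGES2, PTGES3 and PTGR1 as lower, and the groups did not overlap for the same 4. Since the group was chosen from this comparison, nothing is read from these counts. The median log2 change of all genes tested was -0.04. Scaling each library to the same FPKM sum (TPM) moved that median by 0.11 to 0.07, and then 34.7% of all genes and 3 of the members were called, PTGES2 no longer among them. Among all called genes the split was 1443 higher and 2874 lower as deposited, and 3137 higher and 1073 lower under TPM. Without 10 Gy replicate 1 the genes called numbered 2711 and without 10 Gy replicate 2 they numbered 2651.

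A rescaling moves the genes of a library alike, so changes relative to the median of all genes can differ little between scalings by construction. The change of PTGES beyond that median was 1.03 as deposited, 1.04 under upper quartile scaling, 1.05 under TPM and 1.03 under median-of-ratios scaling. That of PTGES3 was between -0.27 and -0.25, that of PTGR1 between -0.35 and -0.33 and that of PTGES2 between -0.19 and -0.17. Without that subtraction the log2 change of PTGES2 was -0.23 as deposited and -0.10 under TPM, that of PTGES3 -0.31 and -0.18 and that of PTGR1 -0.39 and -0.26.

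**Figure D3:**
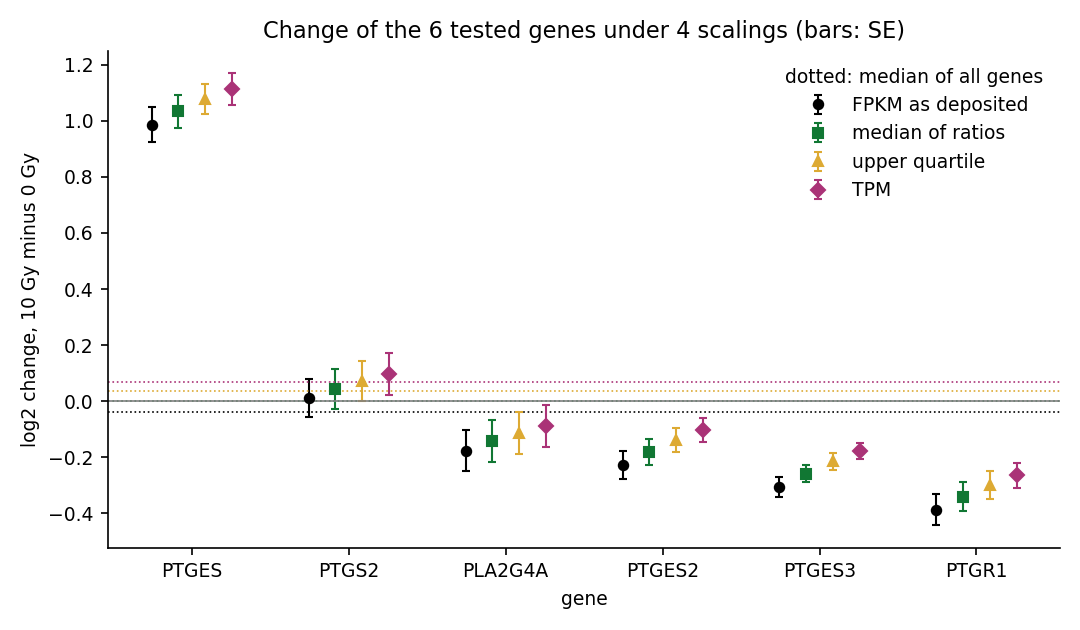
Log2 change (10 Gy minus 0 Gy, bars SE) of the 6 members in the fit, under the FPKM as deposited and 3 other scalings, with the median of all genes as a dotted line in the same colour. PTGES stays between 0.99 and 1.11 and PTGES2, PTGES3 and PTGR1 stay below 0 under all 4.

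Among 10491 protein-coding genes in the fit, PTGES had the third largest log2 change on the scale of log2(FPKM + 1). That scale understates the change of low genes, so a low gene with a larger ratio of FPKM can rank below PTGES, as BAIAP3, described below, does. The rank on other scales was not taken. MUC5B, which encodes a secreted mucin, stood just above it at 1.49 ± 0.13, and PPL, which encodes the desmosome-associated protein periplakin, just below at 0.78 ± 0.04. These are the genes on either side of PTGES in the order of rises. MUC5B was at 1.71 ± 0.277 FPKM at 0 Gy and PPL at 4.35 ± 0.0922, so PTGES began from a far higher level than either. Over all 12128 rows, which include short RNAs that few reads cover, PTGES ranked 25.

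Of the 5 protein-coding genes with the pattern most like that of PTGES, 4 are given here, BCAM, PPL, BAIAP3 and STC1, by the Euclidean distance of log2(FPKM + 1) centred on each gene's mean at 0 Gy, over the 6 libraries. Their distances were 0.417, 0.444, 0.518 and 0.559. Their log2 changes lay between 0.71 and 0.78, so the distance mainly reflects changes that were smaller on log2(FPKM + 1). The added 1 FPKM itself shrinks a ratio most in genes of few FPKM. In FPKM alone, BAIAP3 rose by a larger ratio than PTGES, from 0.829 ± 0.0799 to 1.99 ± 0.0964 FPKM. The FPKM ratios of BCAM, PPL and STC1 were below that of PTGES, that of BCAM only slightly. BCAM, a laminin-binding adhesion molecule, went from 2.45 ± 0.119 to 4.83 ± 0.249 FPKM. STC1, a secreted glycoprotein, went from 12.6 ± 1.36 to 21.4 ± 0.852 FPKM. None of the 4 shares a chromosome with PTGES.

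**Figure D4:**
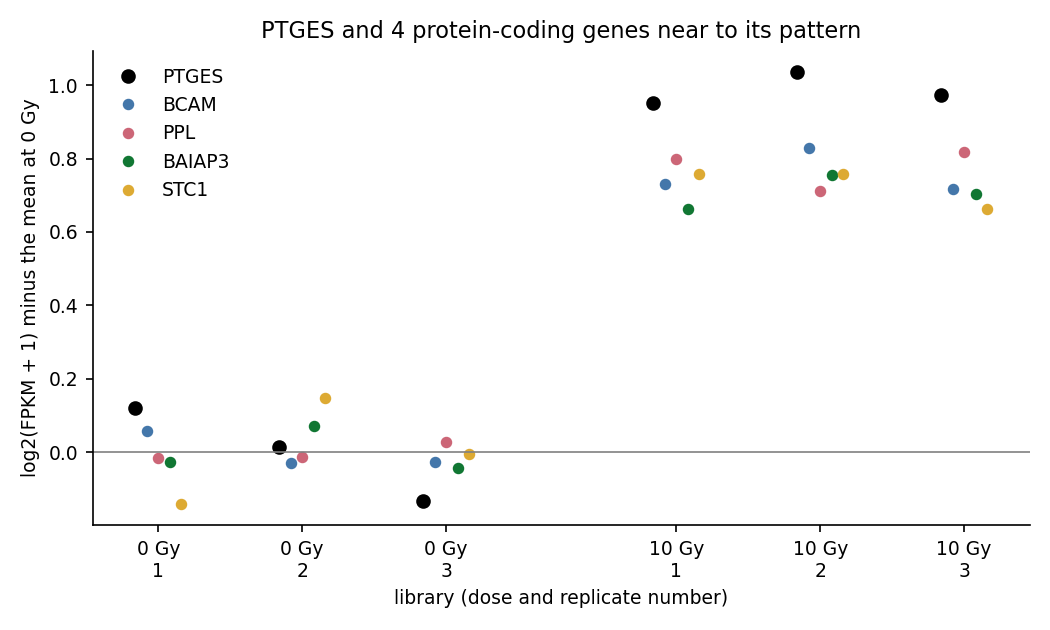
Log2(FPKM + 1) of PTGES and 4 of its nearest genes in each of the 6 libraries, minus the gene's mean at 0 Gy. All 5 genes lie above 0 in each 10 Gy library, and PTGES lies above the other 4 in all of them.

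Reads of some members could be shared with other rows. PTGES3 has processed pseudogenes, of which PTGES3P1 was at 12.2 ± 1.31 FPKM at 0 Gy and 12.2 ± 0.415 FPKM at 10 Gy, with 80 to 175 reads in a library against 8139 to 13690 for PTGES3. PTGES3P3 was at 1.19 ± 0.285 and 1.42 ± 0.645 FPKM, and PTGES3P2, PTGES3P4 and PTGES3P5 were listed at 0. Whether reads were counted by strand is not given in the sources used here, so PTGR1 cannot be told apart from ZNF483 and AL135787.1, which lie on its opposite strand, by strand alone. ZNF483 had 5 to 14 reads in a library and AL135787.1 at most 5, against at least 1217 for PTGR1. RN7SL809P, inside PTGES3, had at most 7 reads, and AL162424.1, inside PTGS1, none. PTGES3L had 5 to 19 reads and its read-through with AARSD1 none. PACERR, a non-coding RNA that starts 195 bases from PTGS2, had at most 7 reads, and PTGES2-AS1 at most 12.

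The rest of the eicosanoid pathway was followed through 69 other genes, of which 30 averaged 1 FPKM or more and 9 were listed at 0 in every library. Of these 30, 12 were called (40.0%), 4 higher and 8 lower, beside 35.6% of all genes, and their median log2 change was 0.00 beside -0.04 for all genes. The split depends on the scaling: it was 6 higher and 5 lower by median of ratios, 8 and 3 by upper quartile and 9 and 1 under TPM. The count fell to 4 without 10 Gy replicate 1, to 4 without 10 Gy replicate 2 and to 7 without 10 Gy replicate 3.

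Among genes that supply and recycle arachidonic acid, 11 of 12 were tested, 2 rose and 2 fell. FADS1, the delta-5 desaturase that makes arachidonic acid, fell from 18.9 ± 1.35 to 16.0 ± 0.811 FPKM (log2 change -0.23 ± 0.06, limma adjusted p = 0.0205). DAGLB, a diacylglycerol lipase, fell as well (-0.21 ± 0.06, adjusted p = 0.0302). ACSL3 and MBOAT7, which activate fatty acids and return arachidonic acid to phosphatidylinositol, rose by small amounts (0.16 ± 0.04, adjusted p = 0.0166, and 0.10 ± 0.03, adjusted p = 0.0289). The falls of FADS1 and DAGLB were not called under TPM, upper quartile scaling or without the filter on low genes. That of DAGLB was not called by median of ratios either, nor the rise of MBOAT7 without the intensity trend. With the replicate block the calls of DAGLB and MBOAT7 were lost. Without 10 Gy replicate 1 the calls of FADS1 (-0.21), DAGLB (-0.23), ACSL3 (0.16) and MBOAT7 (0.09) were lost, and without 10 Gy replicate 2 likewise (-0.21, -0.23, 0.15 and 0.11). DAGLB was also not called without 0 Gy replicate 1, 0 Gy replicate 3 or 10 Gy replicate 3, at -0.19 to -0.16, nor MBOAT7 without 0 Gy replicate 2, 0 Gy replicate 3 or 10 Gy replicate 3, at 0.10 each. ELOVL5, a fatty acid elongase, was at 59.7 ± 1.16 and 63.9 ± 1.83 FPKM (adjusted p = 0.0576), and was called higher under all 3 other scalings and with a minimum of 5 FPKM. ACSL4 was at 30.6 ± 1.17 and 28.5 ± 1.16 (adjusted p = 0.111). Of 15 other phospholipases A2, 2 were tested and 0 called by limma, PLA2G15 at 5.59 ± 0.15 and 5.58 ± 0.456 FPKM and PLA2G12A at 4.18 ± 0.302 and 3.87 ± 0.144 FPKM, and 0 had an unadjusted p under 0.05.

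Of 8 synthases and reductases that turn prostaglandin H2 or its products into other prostanoids, 5 were tested, 3 fell and 0 rose. AKR1B1, an aldose reductase that can make prostaglandin F2-alpha, fell from 40.5 ± 1.77 to 36.7 ± 0.582 FPKM (-0.14 ± 0.04, adjusted p = 0.0291). CBR1, a carbonyl reductase of prostaglandin E2, fell from 19.0 ± 1.75 to 15.7 ± 0.336 FPKM (-0.26 ± 0.06, adjusted p = 0.0166). PRXL2B, a prostamide and prostaglandin F synthase, fell from 11.8 ± 0.808 to 10.1 ± 0.415 FPKM (-0.20 ± 0.05, adjusted p = 0.0285). None of these 3 falls was called under TPM or without the filter on low genes. Those of AKR1B1 and PRXL2B were not called under upper quartile or median-of-ratios scaling either. Without the intensity trend or with the replicate block, the fall of AKR1B1 was not called. That of AKR1B1 was lost without any of the 3 libraries at 10 Gy (-0.15 to -0.12), that of CBR1 without 10 Gy replicate 1 (-0.24), and that of PRXL2B without 0 Gy replicates 1 or 2 or 10 Gy replicates 2 or 3 (-0.19 to -0.16). AKR1C3 was at 5.36 ± 0.0437 and 5.44 ± 0.227 FPKM, and TBXAS1, thromboxane synthase, at 1.59 ± 0.183 and 1.37 ± 0.175 FPKM. The microsomal glutathione transferases, of the same protein family as PTGES, were all tested. MGST1, the highest of the 3, fell from 23.3 ± 0.627 to 17.8 ± 0.393 FPKM (-0.37 ± 0.03, adjusted p = 0.000696), and was called under all 16 alternatives. MGST3 was at 6.27 ± 0.694 and 5.87 ± 0.0930 FPKM and MGST2 at 4.15 ± 0.698 and 4.76 ± 0.0614 FPKM, the latter called higher under TPM and without 0 Gy replicate 1 (0.28).

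Of 5 genes that inactivate or carry prostaglandins, 2 were tested. ABCC4, the MRP4 transporter that exports prostaglandin E2, fell from 5.70 ± 0.229 to 4.74 ± 0.297 FPKM (-0.22 ± 0.05, adjusted p = 0.0160), a call that was lost under TPM and upper quartile scaling, without the filter, and without 10 Gy replicate 2 (-0.22) or 3 (-0.19). ZADH2, a prostaglandin reductase also named PTGR3, was at 2.61 ± 0.145 and 2.41 ± 0.134 FPKM (adjusted p = 0.314). HPGD, the dehydrogenase that begins the breakdown of prostaglandin E2, was at 0.390, 0.412 and 0.426 FPKM at 0 Gy and at 0.339, 0.416 and 0.326 FPKM at 10 Gy, with 35 to 56 reads in a library. SLCO2A1, the uptake transporter, was listed at 0 in all 6 libraries.

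Of 9 prostanoid receptors, 2 were tested and 0 called by limma, and 0 had an unadjusted p under 0.05. PTGER4, a prostaglandin E2 receptor that raises cAMP, was the highest of the 4 prostaglandin E2 receptors, at 3.89, 3.78 and 3.42 FPKM at 0 Gy and at 3.77, 3.83 and 3.70 FPKM at 10 Gy. PTGER2, which also raises cAMP, was at 0.80 ± 0.146 and 1.00 ± 0.179 FPKM and under the filter. PTGER1 had at most 8 reads and PTGER3 at most 4 reads in any library. TBXA2R, the thromboxane receptor, was at 1.60 ± 0.285 and 1.88 ± 0.329 FPKM. In the lipoxygenase and leukotriene branch 5 of 17 genes were tested, 2 rose and 1 fell. LTB4R and LTB4R2, leukotriene B4 receptors whose annotated spans share 604 bases of the same strand, so that their reads are uncertain there, rose from 6.80 ± 0.715 to 8.42 ± 0.450 FPKM (0.27 ± 0.07, adjusted p = 0.0220) and from 1.47 ± 0.207 to 2.10 ± 0.128 FPKM (0.33 ± 0.08, adjusted p = 0.0176). Both calls were lost without 10 Gy replicate 1 (0.28 and 0.30) and without the filter, and that of LTB4R also without 0 Gy replicate 1 (0.23), 0 Gy replicate 2 (0.25) or 10 Gy replicate 2 (0.24). GGT5, a gamma-glutamyltransferase of leukotriene C4, fell from 7.17 ± 0.0654 to 5.96 ± 0.172 FPKM (-0.23 ± 0.04, adjusted p = 0.00414), and was not called under TPM. LTA4H, called higher under TPM and upper quartile scaling alone, was at 12.6 ± 0.630 and 13.0 ± 0.454 FPKM and GGT1 at 2.98 ± 0.245 and 3.25 ± 0.379 FPKM.

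**Figure D5:**
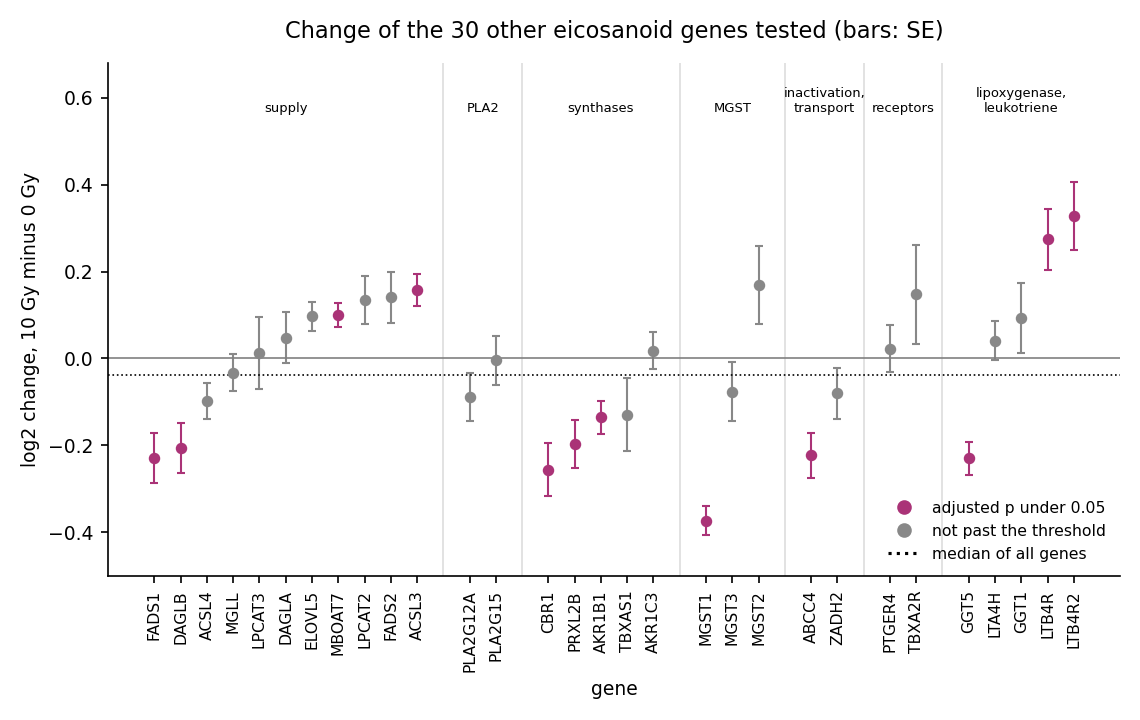
Log2 change (10 Gy minus 0 Gy, bars SE) of the 30 other eicosanoid genes in the fit, by step of the pathway, with called genes in purple and the median of all genes dotted. The 12 called genes lie between -0.37 (MGST1) and 0.33 (LTB4R2).

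HSP90 and 9 of its co-chaperones were read because PTGES3 is p23. All 11 genes of this list were tested, 3 fell and 0 rose (27.3% called), beside 35.6% of all genes called and 23.7% called lower, with a median log2 change of -0.03 beside -0.04. HSP90AB1 was at 798 ± 31.9 and 761 ± 10.53 FPKM and HSP90AA1 at 368 ± 5.28 and 370 ± 9.50 FPKM, and neither was called, though HSP90AA1 was called higher under TPM and upper quartile scaling. PPP5C, a phosphatase bound to HSP90, fell from 21.0 ± 0.527 to 16.8 ± 0.304 FPKM (-0.31 ± 0.03, adjusted p = 0.00104) under all 16 alternatives. FKBP5 and PPID, immunophilins of the same complexes, fell by 0.13 each on the log2 scale (adjusted p = 0.0365 and 0.0453). Both of these calls were lost under the 3 other scalings, without the filter and with the replicate block, and that of PPID without the intensity trend. The call of FKBP5 was also lost without each library but 0 Gy replicate 1 (-0.14 to -0.11) and that of PPID without each but 10 Gy replicate 3 (-0.15 to -0.11). Under TPM 5 of the 11 rose and 1 fell, and without 0 Gy replicate 2, 0 Gy replicate 3, 10 Gy replicate 1 or 10 Gy replicate 2 the count was 1.

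The regulators comprised 12 genes that act on PTGS2, PTGES or PLA2G4A. Of these, 11 were tested, 1 rose and 3 fell (36.4% called), beside 35.6% of all genes, with a median log2 change of -0.05 beside -0.04. The split was 2 higher and 2 lower by upper quartile and 3 higher and 2 lower under TPM. IL1B, the cytokine interleukin-1 beta that induces both PTGS2 and PTGES, rose from 3.17, 3.26 and 2.95 FPKM at 0 Gy to 4.99, 4.46 and 4.10 FPKM at 10 Gy (0.42 ± 0.07, adjusted p = 0.00428), a call kept under all 15 alternatives that tested it. NFKB1 (-0.21 ± 0.04, adjusted p = 0.00739) and NFKBIA (-0.26 ± 0.04, adjusted p = 0.00269), a subunit and an inhibitor of NF-kB, both fell. ANXA1, annexin A1, which restrains cytosolic phospholipase A2, fell from 128 ± 4.10 to 107 ± 2.49 FPKM (-0.26 ± 0.04, adjusted p = 0.00238). CEBPB was at 91.6 ± 7.46 and 94.9 ± 3.14 FPKM and S100A10 at 262 ± 20.8 and 242 ± 5.52 FPKM, and neither was called, except CEBPB as higher under TPM. NFKB1 was not called under TPM or upper quartile scaling.

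The libraries held 15643641 to 21928560 reads on genes at 0 Gy and 17570365 to 28861781 at 10 Gy, as recovered from the FPKM. The depth implied by the FPKM was 0.973 to 0.991 times these reads at 0 Gy and 1.03 to 1.04 times at 10 Gy. The 10 Gy FPKM therefore lie lower, relative to 0 Gy, than they would if scaled by the reads on genes. Correlations of log2 values were between 0.992 and 0.994 within a dose and between 0.984 and 0.989 across doses. The 5 markers of the line were all present, with sums of 851 to 877 FPKM at 0 Gy and 699 to 720 FPKM at 10 Gy, and 4 of the 5 fell, CD44 not under TPM, where it was at 0.021, nor without any library but 0 Gy replicate 1 (-0.11 to -0.08). PGR was listed at 0, and ESR1, CDH1 and EPCAM were at most 1.51 FPKM. Of 8 markers of blood, endothelial and liver cells, CD3E and HBB were listed at 0 and 7 had means under 1 FPKM. Their sum was 1.39 to 1.58 FPKM at 0 Gy and 2.02 to 2.10 FPKM at 10 Gy through PECAM1, which rose from 1.22 ± 0.00854 to 1.94 ± 0.0481 FPKM. Of 8 proliferation genes 6 were called higher, beside 11.9% of all genes, with sums of 616 to 620 FPKM and 740 to 750 FPKM. MKI67 and CCNA2 were not called, at log2 changes of 0.02 ± 0.08 and -0.06 ± 0.03. The part of these differences in the values of PTGES was not tested.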

How the data were processed

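The 6 libraries were assigned to a dose by the treatment in the sample labels, 3 to 0 Gy and 3 to 10 Gy. The values the authors deposited are FPKM, calculated at the company that prepared the polyA libraries. The submitters' processing notes name HISAT2 and GRCh38, and the counting program is not given in the sources used here. Gene coordinates and lengths of all 7 members equal those of GENCODE 29, the lengths as the union of all exons. FPKM multiplied by gene length and implied depth gave whole reads within 0.1, and these reads gave the depth and the read numbers printed for single genes, with no test on them.

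Doses were compared by limma 3.58.1 in R 4.3.3 (eBayes with an intensity trend) on log2(FPKM + 1), a scale that understates the change of low genes. The fit took in the 12128 genes averaging 1 FPKM or more, and a gene was called where its p, adjusted over all of them by the Benjamini-Hochberg method, was under 0.05. The code was tested on simulated data. Figures used matplotlib 3.10.9. The members and the gene lists were chosen with earlier results of these data known. Genes named were all members and, of each list, at most 5 called genes of largest change and the 2 uncalled genes of highest mean. Added to these were the receptors and carriers of prostaglandin E2, HPGD, rows that overlap or copy a member, the 5 genes nearest to PTGES and its neighbours in rank. Of the marker lists, given for the libraries as a whole, not all such genes are printed. Some genes that this rule names, and a part of the list of regulators, are not reported here. Alternatives covered the pseudocount, the filter, 3 scalings, the replicate block, the intensity trend, protein-coding genes alone and each library left out in turn.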

Additional observations from a re-analysis of the deposited data

How the results depend on the processing

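The log2 change of PTGES, which chose the group and is given as a description, was 0.99. It was 1.11 under TPM scaling and 0.92 to 1.05 with 1 library left out. The filter, the block, the trend and the gene types cannot move it, nor the log2 change of any other member, by construction. Of 94 values of the members under alternatives, 87 moved by less than the spread between replicates and 7 moved by more, all under another scaling. The 87 include the values that cannot move, so their number does not measure how stable the changes are. Of 853 values of tested genes under alternatives, 99 were no longer called, 14 became called and 1 turned: CD44 was at 0.021 under TPM. The 853 include genes not called as deposited, which have no call to lose. Set against 853, the 99 therefore understate the share of calls that were lost. The number of genes called over all was 4317, 2912 without the filter, and 2651 to 3975 with 1 library left out, lowest without 10 Gy replicate 2 and next without 10 Gy replicate 1 (2711). The split was 2561 higher and 1444 lower by upper quartile and 1950 and 2047 by median of ratios. The other eicosanoid genes called were 12 of 30 tested, 4 higher and 8 lower, and 4 to 10 with 1 library left out. Without the filter 60 were tested and 5 called, 3 higher and 2 lower. The genes tested there are not the same set, so the 5 need not be a part of the 12. The HSP90 genes called were 3, 1 without the filter, 6 under TPM, and 1 to 2 with 1 library left out. In the order at 0 Gy, 4 of the 7 members kept their place when set on the longest coding transcript, which was added after seeing the data. The causes were not tested.

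With the replicate block, 3503 genes were called over all and 1 of the HSP90 list. Deviations of libraries with the same number correlated at -0.04, -0.03 and -0.10, no library correlated best with its own number, and the numbers were not taken to pair the libraries. PTGS1, HPGD, PTGER1, PTGER2 and PTGER3 were under the filter and were not tested.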

Other observations

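The rows within 250 kb of the starts of PTGES and PTGS2 were read as well. Around PTGES there were 15 other rows, of which 6 were tested and 3 called, beside 35.6% of all genes, with log2 changes from -0.23 to 0.28, against 0.99 for PTGES. The nearest tested neighbours, TOR1B and TOR1A, which encode torsin proteins, begin 50.1 and 71.1 kb away and were at 29.4 ± 0.361 and 29.4 ± 0.687 FPKM and at 17.2 ± 0.425 and 18.3 ± 0.570 FPKM, with limma adjusted p = 0.986 and 0.0896. USP20, a deubiquitinase, rose from 5.80 ± 0.637 to 7.26 ± 0.134 FPKM (0.28 ± 0.07, adjusted p = 0.0159), and NTMT1 and C9orf78 fell by 0.23 and 0.12 on the log2 scale (adjusted p = 0.0133 and 0.0271). PRRX2, a homeobox gene between ASB6 and PTGES, was at 0.0235 ± 0.0407 and 0.0877 ± 0.0724 FPKM. Around PTGS2, PLA2G4A was the only one of 7 rows that passed the filter. These neighbours were chosen by position, after the values of PTGES were known.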
